A study of Mus musculus with 16 samples.

Results

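The catecholamine pathway was followed through 8 member genes across arrays of sorted parvalbumin interneurons, namely Th, Ddc, Gch1, Slc18a2, Slc6a3, Dbh, Maoa and Maob. They were 8 of the 30142 genes with a transcript cluster (the array's unit for 1 gene) of their own. Th was chosen by its measured level, which earlier results had shown to be high in striatal arrays, and the other 7 were chosen by their place in the pathway. Where a gene had several transcript clusters the one with the highest mean over all arrays was to be taken; each member had 1, so this rule selected nothing, and no member was left out for a low level.

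The study compared fast-spiking interneurons, the GABA-releasing neurons that express the calcium-binding protein parvalbumin, of the dorsal striatum and the motor and somatosensory cortex. The 16 arrays formed 4 groups of 4. In the PV-tdTomato/+ groups, which carry no Cre, the Pvalb gene drives the red reporter itself. In the PVCre/+;tdTomato/+ groups, called PVCre below, Cre made under Pvalb switches on a tdTomato reporter. All mice were labelled C57BL/6J, male and 30 days old, and each array held RNA of 2000 fluorescence-sorted cells pooled from 2 to 4 mice. The labels do not say whether the striatal and cortical pools came from the same mice, and they name no batch, so line and batch cannot be told apart; the p-values speak only of spread among such pools.

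Catecholamines are made from tyrosine. Tyrosine hydroxylase (Th) performs the rate-limiting step and needs tetrahydrobiopterin, whose synthesis starts with GTP cyclohydrolase (Gch1); aromatic amino acid decarboxylase (Ddc) then yields dopamine. A dopamine neuron loads it into vesicles with Slc18a2 (VMAT2) and takes it back from outside with Slc6a3 (the dopamine transporter), noradrenergic neurons convert it with Dbh, and the monoamine oxidases Maoa and Maob degrade it. The striatum receives dense dopamine input from the midbrain, and it also contains a small population of local GABA interneurons that express Th.

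RefSeq promoter windows of build GRCm38.p6 were at hand for 7 of the 8 members. They are shown because Th, which stood far above background in PV-tdTomato striatum, and Slc18a2, which was at background on those arrays, hold the same perfect cyclic AMP response element (CRE), TGACGTCA, a sequence that is its own reverse complement and is printed in capitals. In Th it lies at bases -45 to -38 from the annotated start site. In Slc18a2 it spans that site, from base -4 to base 4. Among 32851 promoter windows of 300 bases (250 before and 50 after the start site), 1.79% hold this sequence, and of the members' windows only these 2 do. Gch1 is printed beside them as a member whose window does not hold this exact sequence. Inexact matches were not searched for. The match is a description and not a measured binding site.
Th, chr7:142899996-142900095, minus strand: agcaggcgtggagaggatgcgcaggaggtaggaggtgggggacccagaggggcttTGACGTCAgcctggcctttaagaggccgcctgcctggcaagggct
Slc18a2, chr19:59260782-59260881, plus strand: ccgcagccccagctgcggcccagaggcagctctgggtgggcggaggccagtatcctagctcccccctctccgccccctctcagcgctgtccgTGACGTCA
Gch1, chr14:47189414-47189513, minus strand: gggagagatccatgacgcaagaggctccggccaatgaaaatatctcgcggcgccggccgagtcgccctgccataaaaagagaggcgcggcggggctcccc

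Levels are RMA values on a log2 scale, so 1 unit is a doubling of signal, and the level of one gene is not set against that of another. Background was taken from 1083 olfactory receptor genes, which are mostly silent outside the nose: a gene counted as above background on an array where it exceeded their 95th percentile, which lay between 6.02 and 6.83. Pvalb was above background on every array but uneven. It was under 9 in 6 of the 16 arrays: PV-tdTomato replicates 3 and 4, striatal as well as cortical, and PVCre cortical replicates 2 and 4. These arrays were not alike in Gad1, a GABA synthesis gene. Gad1 read 12.09 to 12.77 on those of PV-tdTomato, but 8.88 and 7.4 on PVCre cortical replicates 2 and 4. PVCre cortical replicates 1 and 3 read 11.63 and 13.66. The lines differed in array quality: the median of the positive controls exceeded that of the negative controls by 4.16 to 4.85 in PV-tdTomato and by 3.08 to 3.93 in PVCre. Oligodendrocyte markers were high throughout (mean of 9 markers, 12.85 to 15.65), and Xist, the RNA of the inactive X chromosome, was over 10 in 8 of 16 arrays despite the male label.

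Th stood far above background in PV-tdTomato striatum, and Gch1, Slc18a2, Slc6a3 and Dbh did not rise above background on any array of that group. Its 4 arrays read 14.1, 14.14, 11.09 and 11.06 for Th (12.6 ± 1.76, SD, n = 4). In PV-tdTomato cortex the levels were 9.02, 8.24, 6.76 and 6.46 (7.62 ± 1.22). PVCre striatum gave 7.61, 7.67, 8.1 and 8.11 (7.87 ± 0.27), and PVCre cortex 6.58, 6.78, 7.02 and 6.6 (6.75 ± 0.2). Every PV-tdTomato striatal array was above every other array, by 2.04 or more on the log2 scale. PVCre striatum, next in the order of means, lay inside the range of PV-tdTomato cortex, and so did PVCre cortex; within PVCre, every striatal array was above every cortical one. Th exceeded background on 16 of 16 arrays, although several cortical arrays did so by little.

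**Figure D1:**
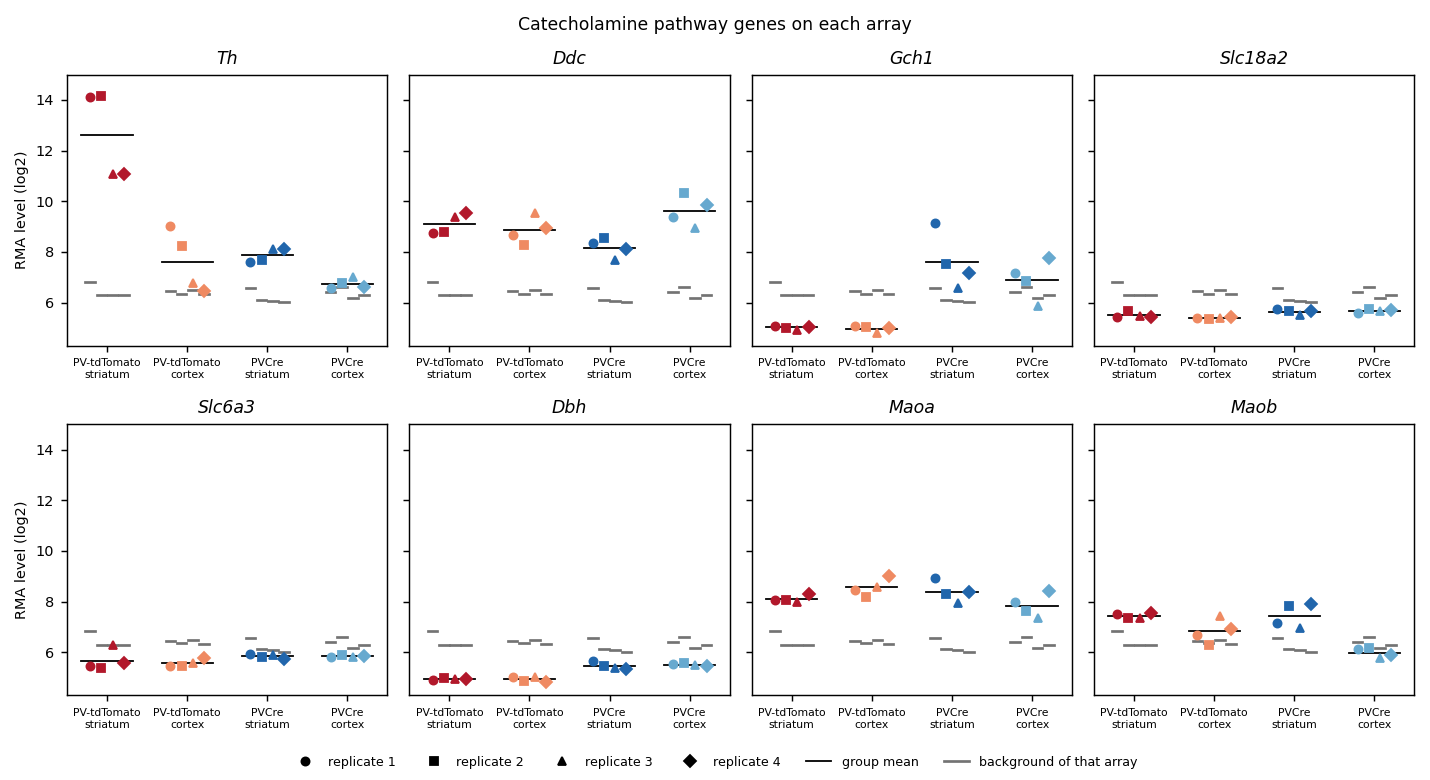
Level of each pathway gene (vertical axis, RMA, log2) on the 16 arrays by group; symbols are replicates 1 to 4, black lines group means and grey marks the background of that array. Th reaches 11.06 to 14.14 in PV-tdTomato striatum, while Slc18a2, Slc6a3 and Dbh stay at or below the grey marks on all arrays and Gch1 rises above them only in PVCre.

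Striatum minus cortex for Th was 4.98 ± 0.7 (SE) in PV-tdTomato, a 31.5-fold difference, and 1.13 ± 0.7 in PVCre, a 2.18-fold difference; over both lines it was 3.05 ± 0.5. These values led to the choice of Th and are given with no test.

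Between lines in striatum, Th read 26.4-fold lower in PVCre (log2 difference -4.72 ± 0.7), with no overlap between the 4 and 4 arrays. This difference rests on the same striatal levels that led to the choice of Th and is likewise given with no test. It was -2.73 with the array quality measure as a covariate and -6.25 without the 6 arrays low in Pvalb; as the quality measure separates the lines, quality and line cannot be told apart. The difference between the region effects of the lines was -3.85 ± 1 for Th, again with no test; of the other 7 members 0 were called in that comparison (3 at an unadjusted p under 0.05), beside 0.0962% of all genes. In cortex, where no striatal array enters, the line difference of Th was -0.87 ± 0.7 and did not pass (limma, Benjamini-Hochberg adjusted p = 0.32). Without the 6 arrays low in Pvalb it was -1.83 and passed (limma adjusted p = 0.0015). That setting leaves out 2 of 4 arrays in each group except PVCre striatum. With the quality covariate the cortical line difference turned to 0.93 (limma adjusted p = 0.57). A call was common between lines: 50.4% of all genes were called in striatum and 51% in cortex.

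Within PV-tdTomato, Th was higher in the pools with more Pvalb. In striatum the pools with Th at 14.1 and 14.14 had Pvalb at 11.38 and 11.86, and those at 11.09 and 11.06 had Pvalb at 7.29 and 8.4. In cortex the 2 higher Th levels likewise belonged to the pools with Pvalb at 12.17 and 11.13 against 6.96 and 7.19. Oligodendrocyte markers ran the other way: their mean was 12.98, 12.85, 14.81 and 14.95 in the same striatal arrays and 13.22, 13.36, 15.32 and 14.9 in the cortical ones. In these bulk pools, fewer cells of a type and less RNA per cell cannot be told apart. Between groups the order was another: PVCre striatum had Pvalb at 10.2 to 11.87 with Th at 7.61 to 8.11. Markers of striatal projection neurons, the main neurons of the striatum, moved with the groups as Th did. Of 11, 7 were higher in striatum over both lines, beside 2.95% of all genes called in either direction. In PVCre striatum 6 were lower than in PV-tdTomato striatum, beside 50.4% of all genes called in either direction. The marker mean was 8.68 to 9 in PV-tdTomato striatum and 7.64 to 8.44 in PVCre striatum. It was 7.13 to 8.29 in PV-tdTomato cortex and 6.53 to 7.26 in PVCre cortex. On all arrays of either striatal group 10 of 11 markers were above background. The correlation of this mean with Th was 0.81 over the 16 arrays, which share line and region, and 0.32 after group means were removed. The part of these other cells in the Th values was not tested.

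**Figure D2:**
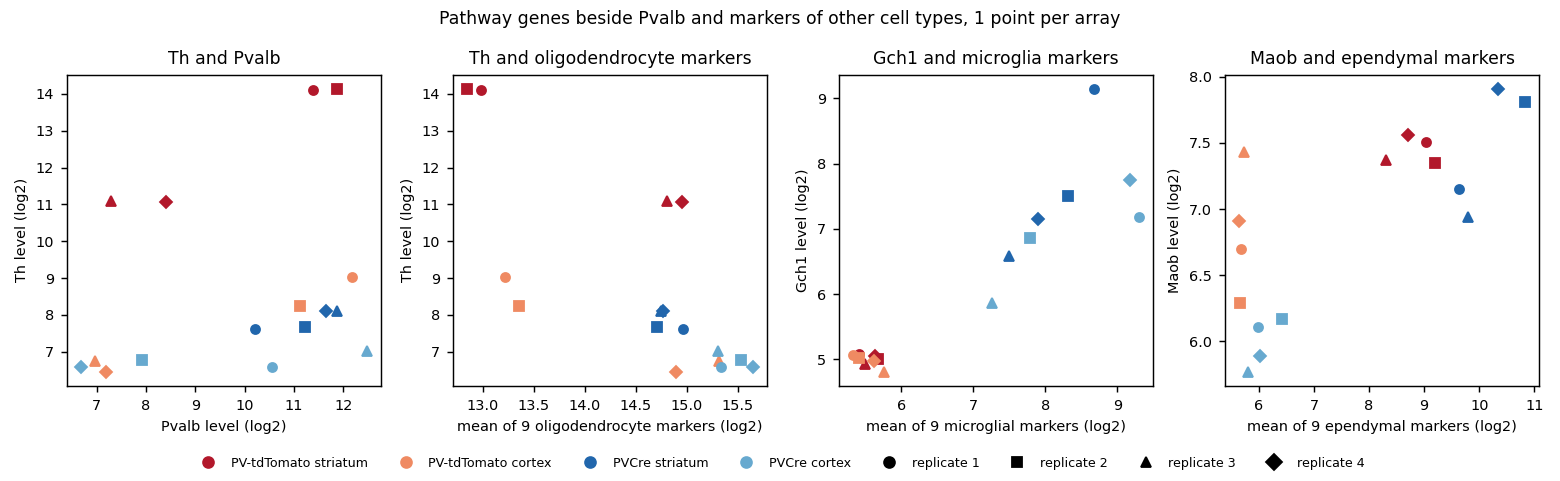
Th against Pvalb and against the mean of 9 oligodendrocyte markers, Gch1 against the mean of 9 microglial markers, and Maob against the mean of 9 ependymal markers (log2 levels, 1 point per array, colour for group, symbol for replicate). In PV-tdTomato striatum, Th is at 14.1 and 14.14 in the pools with Pvalb over 11 and at 11.09 and 11.06 in the others; Gch1 leaves background only where microglial markers do.

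Genes whose pattern over the 16 arrays was most like that of Th, by Pearson correlation and with no test, were Pdyn (0.98), Gpx3 (0.97), Epha8, Mc3r, Trh and Lrrc55 (0.96 each), and Hmcn2 and Chrnb4 (0.95 each), out of 13504 genes ranked. The 16 points share line and region. Trh, the precursor of thyrotropin-releasing hormone, read 11.85, 12.15, 9 and 9.33 in PV-tdTomato striatum and 4.91 to 6.37 elsewhere. Mc3r, a melanocortin receptor, read 9.86, 9.51, 7.61 and 7.74 there and at most 5.7 elsewhere. Pdyn, the dynorphin precursor and a marker of striatal projection neurons as well, read 9.01, 9.04, 7.52 and 7.61 against at most 6.49. Each of these 3 was higher in replicates 1 and 2 of that group than in replicates 3 and 4, as Th was. At the other end stood Fmr1 (-0.94), Dock5 (-0.9), Ammecr1 and Elovl5 (-0.88 each) and Ptgds (-0.87); the last is abundant in oligodendrocytes. Among the members the correlation with Th was 0.48 for Maob and between -0.55 (Dbh) and -0.14 (Ddc) for the other 6.

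**Figure D3:**
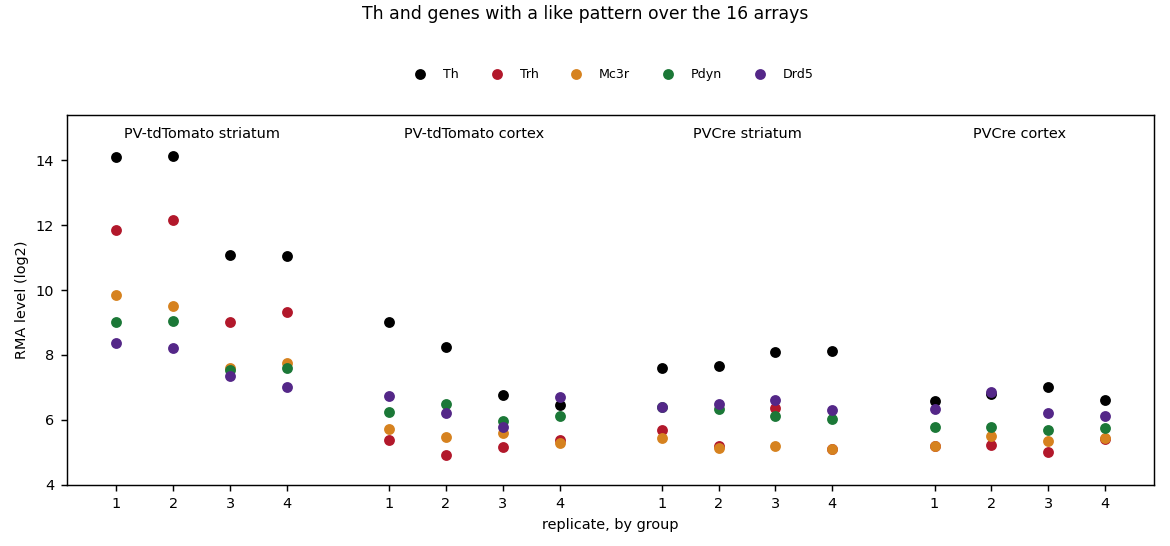
Levels (RMA, log2) of Th, Trh, Mc3r, Pdyn and the dopamine receptor gene Drd5 on each of the 16 arrays, by group and replicate. All 5 are highest in PV-tdTomato striatum, with replicates 1 and 2 above replicates 3 and 4.

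Ddc, the enzyme after Th, was above background on all 16 arrays and did not share the striatal rise. PV-tdTomato striatum read 8.75, 8.78, 9.36 and 9.52 (9.1 ± 0.39) and PV-tdTomato cortex 8.68, 8.27, 9.52 and 8.94 (8.85 ± 0.52). These overlap, and the region difference was 0.25 ± 0.32 (limma adjusted p = 0.98). In PVCre the striatal levels of 8.35, 8.54, 7.68 and 8.1 (8.17 ± 0.37) were all under the cortical ones of 9.39, 10.33, 8.94 and 9.84 (9.62 ± 0.6), and Ddc fell by 1.46 ± 0.32 (limma adjusted p = 0.022). This call was lost without replicate 3 or 4 of PVCre striatum or replicate 2 or 4 of PVCre cortex, and without the arrays low in Pvalb (-1, limma adjusted p = 0.087). Between lines Ddc was lower in PVCre striatum by 0.94 ± 0.32 (limma adjusted p = 0.024), a call lost under quantile normalization (-0.43, limma adjusted p = 0.36), without the arrays low in Pvalb (-0.6, limma adjusted p = 0.069) and without replicate 3 or 4 of PV-tdTomato striatum or replicate 3 of PVCre striatum. Its line difference in cortex was 0.77 ± 0.32 (limma adjusted p = 0.055). It passed under quantile normalization (1.34, limma adjusted p = 0.0087) and without replicate 3 of either cortical group. With the array quality covariate it changed sign (-0.14, limma adjusted p = 0.86). The difference between the region effects was -1.71 ± 0.45 for Ddc (limma adjusted p = 0.27).

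Gch1, which opens the synthesis of the Th cofactor, was at background wherever Th was highest. PV-tdTomato striatum read 5.08, 5.01, 4.93 and 5.05, and PV-tdTomato cortex 5.06, 5.02, 4.81 and 4.98. PVCre striatum read 9.15, 7.51, 6.58 and 7.15 (7.6 ± 1.1), above background on all 4 arrays, and PVCre cortex 7.18, 6.86, 5.86 and 7.75 (6.91 ± 0.79), above it on 3. The lines did not overlap in either region. Gch1 rose in PVCre by 2.58 ± 0.45 in striatum (limma adjusted p = 0.00029) and by 1.94 ± 0.45 in cortex (limma adjusted p = 0.0024). With the PV-tdTomato level bounded by the background of its arrays, this is at least 2.25-fold in striatum and at least 1.41-fold in cortex. The same arrays gained microglial signal. In PVCre 9 of 9 microglial markers rose in both regions, beside 50.4% and 51% of all genes called in either direction. The marker mean was 5.33 to 5.76 in PV-tdTomato, where 8 of 9 markers were above background on no array of either group. It was 7.5 to 8.67 in PVCre striatum and 7.26 to 9.3 in PVCre cortex. P2ry12 and C1qa, defining microglial genes, were at background on every PV-tdTomato array. The highest Gch1 level, in replicate 1 of PVCre striatum, came with the highest mean of 10 endothelial markers (9.73, against 7.5 to 8.04 in the other 3). The part of these cells in the Gch1 difference was not tested. Both Gch1 calls were lost with the array quality covariate (1.4 and 0.87, limma adjusted p = 0.19 and 0.39), and the cortical one without the arrays low in Pvalb (1.48, limma adjusted p = 0.14).

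Slc18a2, Slc6a3 and Dbh, which store, recapture and convert dopamine, exceeded background on 0 of 16 arrays each. Slc18a2 ranged from 5.37 to 5.75, Slc6a3 from 5.38 to 6.27 and Dbh from 4.84 to 5.66. In PV-tdTomato striatum Slc18a2 read 5.42 to 5.67 on the arrays where Th was at 11.06 to 14.14, a range that overlapped every other group. Striatum minus cortex in PV-tdTomato was 0.1 ± 0.08 for Slc18a2, 0.11 ± 0.15 for Slc6a3 and 0.01 ± 0.08 for Dbh (limma adjusted p = 0.95, 0.98 and 1). Dbh passed as higher in PVCre, by 0.52 ± 0.08 in striatum and 0.57 ± 0.08 in cortex (limma adjusted p = 0.00014 and 6.5e-05), and Slc18a2 did so in cortex, by 0.28 ± 0.08 (limma adjusted p = 0.01). The Slc18a2 call was lost under quantile normalization, without the arrays low in Pvalb and with the quality covariate, and the striatal Dbh call with that covariate. As neither line was above background, no fold is given. Olfactory receptor genes, from which background was taken, were called too: 10.6% of the 1083 were higher and 24.1% lower in PVCre striatum, and 16% and 22.2% in cortex. Calls between lines thus also occur among the genes that define background.

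Maoa was above background on 16 of 16 arrays, and Maob differed between regions. Both lie on the X chromosome, and Xist was over 10 in 1 of 4 arrays of each PV-tdTomato group and in 3 of 4 of each PVCre group. Maob read 7.51, 7.35, 7.37 and 7.56 in PV-tdTomato striatum (7.44 ± 0.1) and 6.7, 6.29, 7.43 and 6.91 in PV-tdTomato cortex. PVCre striatum read 7.15, 7.81, 6.94 and 7.91, and PVCre cortex 6.11, 6.17, 5.77 and 5.89, at background on all 4 arrays. The regions did not overlap in PVCre. Maob was the only 1 of 7 members tested that passed in the region comparison over both lines (1.04 ± 0.17, limma adjusted p = 0.0016; 2.95% of all genes were called); no fold is given for it, as PVCre cortex was at background. In PVCre it was higher in striatum by 1.47 ± 0.24 (limma adjusted p = 0.0024), at least 2.12-fold with the cortical level bounded by background; Ddc was the other of the 2 members called there, where 2.5% of genes were. In PV-tdTomato the difference of 0.61 ± 0.24 did not pass (limma adjusted p = 0.47), and 0 of 7 members were called in a comparison that called 1.63% of genes; at an unadjusted p under 0.05 there was 1, Maob. Ependymal markers moved with the region as well: 9 of 9 were higher in striatum over both lines, and their mean ran from 8.31 to 10.83 on striatal arrays, against 5.64 to 6.42 on cortical ones. Of 10 astrocyte markers 4 were higher in striatum over both lines (Sox9, Mlc1, Slc4a4 and Aqp4). Of the 10, 5 were above background on all arrays of PV-tdTomato striatum and 6 of PVCre striatum, against 3 in each cortical group, while Gfap, Aldh1l1 and Gja1 were above it on no array. The astrocyte mean was 7.42 to 8.03 on striatal arrays and 6.3 to 8.01 on cortical ones. Over the 16 arrays Maob correlated with the astrocyte mean at 0.85 and with the ependymal mean at 0.74, a description over points that share line and region. After group means were removed the correlations were 0.52 and 0.53. Whether these cells take part in the Maob difference was not tested. Maob was also lower in PVCre cortex than in PV-tdTomato cortex by 0.85 ± 0.24 (limma adjusted p = 0.0082), at least 1.38-fold with the PVCre level bounded by background, a call lost without the arrays low in Pvalb and with the quality covariate.

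Maoa read 8.06, 8.05, 7.98 and 8.29 in PV-tdTomato striatum, 8.46, 8.18, 8.59 and 9.02 in PV-tdTomato cortex, 8.93, 8.29, 7.95 and 8.38 in PVCre striatum, and 7.98, 7.62, 7.35 and 8.42 in PVCre cortex. The groups overlapped, and no region difference passed. Its one call was a lower level in PVCre cortex (-0.72 ± 0.24, limma adjusted p = 0.022), which was lost when replicate 4 of PV-tdTomato cortex, or replicate 2 or 3 of PVCre cortex, was left out, and under quantile normalization (-0.23, limma adjusted p = 0.47). It was also lost without the arrays low in Pvalb (limma adjusted p = 0.12), with the quality covariate (0.083) and in a fit of only the groups compared (0.051). In all, 3 of the 7 members other than Th were called between lines in striatum (2 higher, 1 lower in PVCre) and 5 of 8 in cortex (3 higher, 2 lower), beside 50.4% and 51% of all genes.

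**Figure D4:**
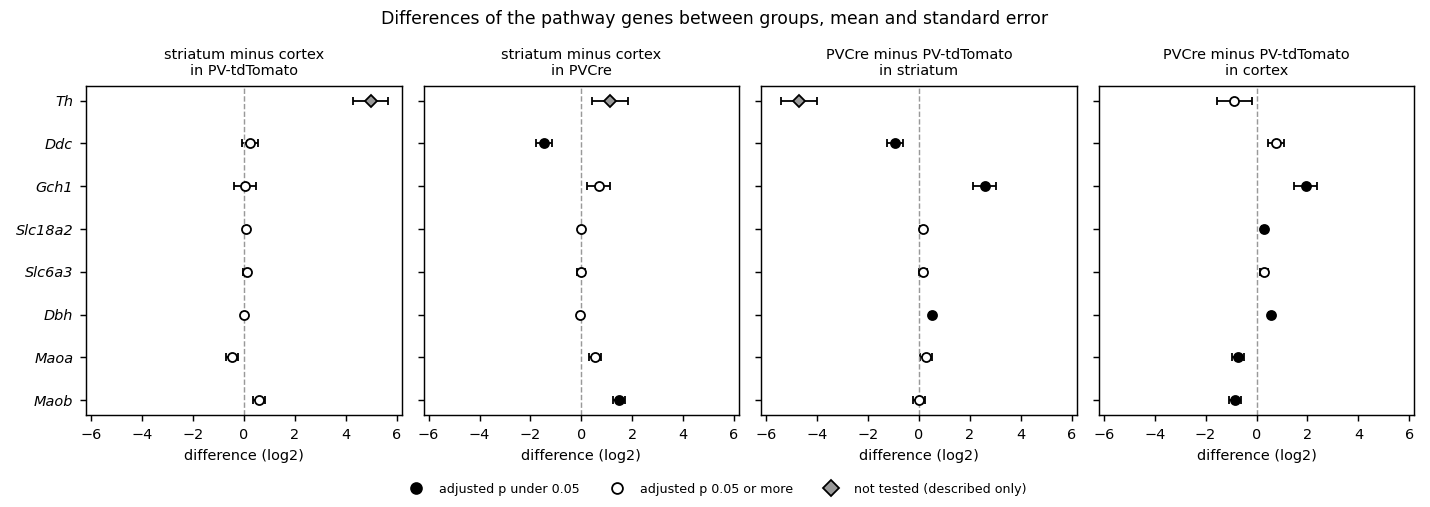
Difference of each pathway gene (log2, mean and standard error) in 4 comparisons; filled circles have a limma adjusted p under 0.05, open circles do not, and grey diamonds (Th wherever striatal arrays enter) were not tested. Th is at 4.98 in the PV-tdTomato region comparison, where the other 7 members lie between -0.46 and 0.61.

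The further biopterin genes, which complete or recycle the Th cofactor, were mostly above background, also in PV-tdTomato, where Gch1 was at background. Pts and Spr, the synthesis steps after Gch1, and Qdpr and Pcbd2, which recycle the cofactor, were above background on 16 of 16 arrays, and Pcbd1, the other recycling dehydratase, on 13. In each region comparison 0 of 6 passed limma's adjusted threshold, beside 2.95% of all genes over both lines, 1.63% in PV-tdTomato and 2.5% in PVCre. At an unadjusted p under 0.05 there were 4 over both lines, 0 in PV-tdTomato and 3 in PVCre. The median difference over both lines was 0.33, against -0.02 over all genes. Pcbd1 read 10.77, 11.62, 8.82 and 9.26 in PV-tdTomato striatum, 10.28, 9.52, 8.18 and 8.93 in PV-tdTomato cortex, 7.08, 8.84, 8.67 and 9.17 in PVCre striatum, and 6.39, 6.42, 6.68 and 6.26 in PVCre cortex. Like Th, it was higher in replicates 1 and 2 of both PV-tdTomato groups than in replicates 3 and 4. Between lines 3 of 6 were lower and 1 higher in PVCre striatum, and 4 lower and 1 higher in cortex, beside 50.4% and 51% of all genes called in either direction. Pcbd1 fell by 1.68 ± 0.6 and by 2.79 ± 0.6 (limma adjusted p = 0.03 and 0.0015), Pcbd2 by 1.18 ± 0.28 and by 1.13 ± 0.28 (0.0032 and 0.0043), and Spr by 1.3 ± 0.2 and by 0.9 ± 0.2 (0.00014 and 0.0022), while Pts fell in cortex by 1.17 ± 0.28 (0.0032). With the array quality covariate none of these 7 differences passed, and those of Pcbd1 and Pcbd2 in striatum changed sign (0.58 and 0.06). The striatal Pcbd1 call was also lost under quantile normalization, in a fit of only the groups compared and without replicate 1 or 2 of PV-tdTomato striatum or replicate 1 of PVCre striatum. The cortical calls of Pts and Spr were lost under quantile normalization as well (limma adjusted p = 0.06 and 0.051), and that of Spr without the arrays low in Pvalb (0.14). Gchfr, the feedback regulator of Gch1, was higher in PVCre (1 and 1.03) at levels near background (4.82 to 6.32), above it on 3 of 4 arrays of PVCre striatum and on no other.

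Of 8 further genes of catecholamine synthesis, transport and breakdown, Aldh2, an aldehyde dehydrogenase that can oxidise the aldehyde left by monoamine oxidase, was higher in striatum over both lines (0.68 ± 0.11, limma adjusted p = 0.0014) and lower in PVCre (-1.25 ± 0.15 in striatum, -1.09 ± 0.15 in cortex; limma adjusted p = 1.6e-05 and 5.2e-05). It read 7.6 to 8.03 in PV-tdTomato striatum, 6.58 to 7.4 in PV-tdTomato cortex and 6.37 to 6.67 in PVCre striatum. In PVCre cortex it read 5.8 to 6.1, at background on all 4 arrays, so the cortical line difference is at least 1.58-fold. Its region difference in PV-tdTomato, 0.76 ± 0.15 (limma adjusted p = 0.016), was lost without replicate 1 of that striatal group, in a fit of only the groups compared (limma adjusted p = 0.19) and without the arrays low in Pvalb (0.094). Pnmt, which makes adrenaline, the noradrenaline transporter gene Slc6a2, the vesicular transporter gene Slc18a1, and Aldh3a1 and Dao were called higher in PVCre in both regions but exceeded background on 0 of 16 arrays. With Aldh2, 6 of the 8 were called between lines in each region, beside 50.4% of all genes in striatum and 51% in cortex. For the region 1 of 8, Aldh2, was called over both lines and in PV-tdTomato, beside 2.95% and 1.63% of all genes.

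On the receiving side, 1 of 5 dopamine receptor genes was called in each region comparison: Drd2 over both lines and in PVCre, and Drd5 in PV-tdTomato. Of all genes 2.95%, 2.5% and 1.63% were called in these comparisons. At an unadjusted p under 0.05 there were 4 receptor genes over both lines, 1 in PVCre and 5 in PV-tdTomato. These 5 include Drd3 and Drd4, which exceeded background on 0 of 16 arrays. The shares of all genes above are for the adjusted threshold and cannot be set against these counts. Drd2 was higher in striatum by 1.84 ± 0.31 over both lines (limma adjusted p = 0.0026) and by 2.09 ± 0.44 in PVCre (limma adjusted p = 0.018), and by 1.59 ± 0.44 in PV-tdTomato without passing (limma adjusted p = 0.12). It read 9.78, 9.13, 10.27 and 10.51 in PV-tdTomato striatum, and here replicates 3 and 4 were the higher ones, unlike for Th. PVCre striatum read 9.21, 10.4, 9.11 and 9.19, and the call within PVCre was lost without replicate 2 of that group (1.78, limma adjusted p = 0.064) and without replicate 1, 2 or 4 of PVCre cortex. Without the arrays low in Pvalb the difference over both lines was 1.13 (limma adjusted p = 0.068). Drd2 also marks one kind of striatal projection neuron. Drd5 read 8.37, 8.22, 7.35 and 7.02 in PV-tdTomato striatum, 6.72, 6.2, 5.79 and 6.69 in PV-tdTomato cortex and 6.12 to 6.86 in PVCre, and so shared the pattern of Th (r = 0.91 over 16 arrays). It was higher in striatum in PV-tdTomato by 1.39 ± 0.29 (limma adjusted p = 0.021), a call lost without replicate 1 or 2 of that striatal group or replicate 2 or 3 of the cortical one and in a fit of only the groups compared (limma adjusted p = 0.22). It was lower in PVCre striatum than in PV-tdTomato striatum by 1.3 ± 0.29 (limma adjusted p = 0.0019; with the quality covariate -1.03 and 0.18). Drd1 was above background on all arrays and was called in no comparison. Drd4 and Drd3 were at background, although Drd3 was called lower in PVCre in both regions.

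Of 9 transcription factor genes of midbrain dopamine neurons, 0 passed limma's adjusted threshold in any region comparison. Of all genes 2.95% were called over both lines, 1.63% in PV-tdTomato and 2.5% in PVCre. At an unadjusted p under 0.05 there was 1 over both lines, 1 in PV-tdTomato and 0 in PVCre. Of the 9, 7 were above background on no array, among them Pitx3. Between lines 7 of 9 were called higher in PVCre striatum and 6 of 9 in PVCre cortex, beside 50.4% and 51% of all genes called in either direction, but 5 of these were among the genes at background. Nr4a2, which activates Th in midbrain neurons, was lowest where Th was highest: it read 6.95, 7.08, 7.06 and 6.93 in PV-tdTomato striatum, 7.63 to 7.88 in PV-tdTomato cortex, 8.88 to 10.55 in PVCre striatum and 8.42 to 9.32 in PVCre cortex. It was higher in PVCre by 2.4 ± 0.29 in striatum and 1.16 ± 0.29 in cortex (limma adjusted p = 1.8e-05 and 0.0047), the cortical call being lost without the arrays low in Pvalb and with the quality covariate. En2 was higher as well (1.36 ± 0.15 and 1.59 ± 0.15; limma adjusted p = 8.2e-06 and 2.3e-06), from background in PV-tdTomato to 6.35 to 7.23 in PVCre, at least 1.17-fold in striatum and 1.45-fold in cortex. The calls at background were Lmx1a, Lmx1b, Foxa2, Otx2 and, in striatum only, En1. Of 6 factor genes linked to the dopaminergic interneurons of the olfactory bulb, Meis2 was higher in striatum over both lines (1.45 ± 0.25, limma adjusted p = 0.003), and its PV-tdTomato difference of 1.5 ± 0.35 had a limma adjusted p of 0.049 and passed in 3 of the 16 fits that left out 1 array (those without PV-tdTomato cortex replicate 3 or 4 or PVCre cortex replicate 3); it did not pass under quantile normalization (0.097), with array weights (0.096) or in a fit of only the groups compared (0.33). Unlike Th, Meis2 was higher in replicates 3 and 4 of both PV-tdTomato groups. Those read 9.74 and 9.67 in striatum, against 9 and 9.11 in replicates 1 and 2, and 8.66 and 8.67 in cortex, against 7.09 and 7.11. Nr2f1 was lower in striatum over both lines (-1.27 ± 0.19, limma adjusted p = 0.001) and in PV-tdTomato (-2.01 ± 0.27, limma adjusted p = 0.00064), with 6.35 to 7.23 in that striatal group and 8.2 to 9.52 in its cortex. Pax6 and Dlx2 were called lower in PVCre cortex near background. Of 5 genes of other monoamine neurons (Tph2, Slc6a4, Slc6a2, Hdc and Phox2a) each was above background on 0 of 16 arrays. At these levels 1 was called higher in striatum over both lines and 1 in PV-tdTomato, beside 2.95% and 1.63% of all genes called in either direction. Between lines 3 were called higher in PVCre striatum, and 4 higher and 1 lower in PVCre cortex, beside 50.4% and 51%.

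**Figure D5:**
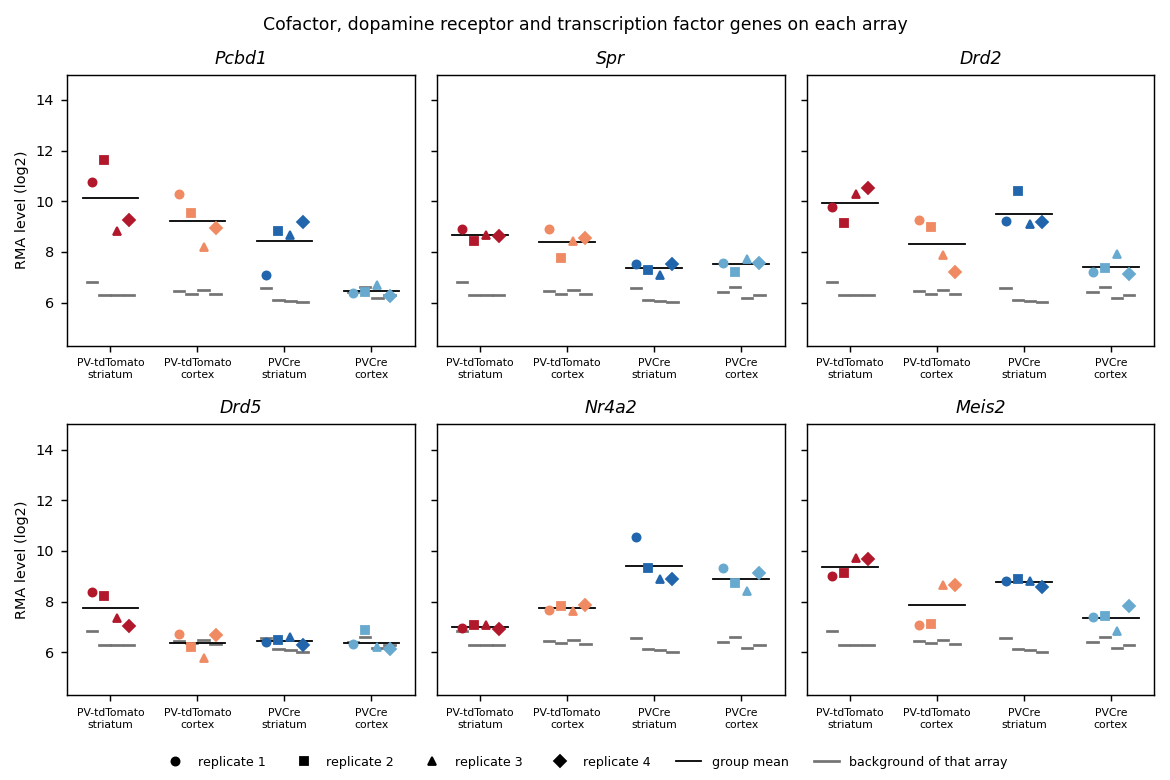
Levels (RMA, log2) of Pcbd1, Spr, Drd2, Drd5, Nr4a2 and Meis2 on the 16 arrays by group; symbols are replicates 1 to 4, black lines group means and grey marks the background of that array. Drd5 is highest in PV-tdTomato striatum (7.02 to 8.37), and Nr4a2 is lowest there (6.93 to 7.08).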

How the data were processed

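RNA of sorted cells was amplified from 5 ng and hybridised to Affymetrix mouse transcriptome arrays, per the labels' protocols. The deposited log2 levels were made by the authors with RMA (Affymetrix Expression Console); these names come from the submitters' processing notes, per the labels, with versions not given in the sources used here. Of 65956 transcript clusters, 30604 had 1 gene symbol in the platform annotation, 2146 several and 33206 none listed; symbols were updated through RefSeq (GRCm38.p6), and the cluster with the highest mean was kept for each of 30142 genes. Control probe sets were left out of tests. limma 3.58.1 (R 4.3.3) fitted 1 mean per group to all 16 arrays. The p-values were adjusted over all genes with a threshold of 0.05, and the fit was tested on simulated data. Counts at an unadjusted p under 0.05 have no share of all genes at that threshold beside them. Arrays have no read depth; their number limits the precision. Members and lists were chosen with earlier results of these data known, so no pattern here is independent support for them; Th was tested only between lines in cortex, since its striatal levels led to its choice. Named genes were the members, the 8 most and 5 least like Th by correlation (33.3% of genes with the lowest means and predicted genes left out), called genes of each pathway list, and checks. Cell type markers came from fixed lists. Same-numbered PV-tdTomato arrays deviated together (correlations 0.54 to 0.71 in 4 of 4 pairs). Pvalb was high or low in the same replicate numbers of both regions, so these correlations cannot show whether the pools were paired. The main fit used no pairing, and the replicate number was a block only in an alternative setting.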

Additional observations from a re-analysis of the deposited data

Results flagged for a closer look

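Among 152 groups of 4 arrays, 3 values stood farther from the other arrays of their group than the 95% critical value of Dixon's test allows; chance alone gives about 1 in 20, and none of the 3 was a pathway member. Drd2 in replicate 2 of PVCre striatum was 10.4, against 9.11 to 9.21 in the other 3 arrays. The mean of the pericyte and smooth muscle markers in replicate 1 of PVCre striatum was 8.24, against 6.53 to 6.79; the same array had the highest Gch1 level of its group, 9.15. Gchfr in replicate 4 of PV-tdTomato striatum was 4.93, against 5.22 to 5.28, all below background.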

How the results depend on the processing

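No member changed direction in a comparison where it was called, over the 27 alternative settings (26 for Dbh, which a filter on the lowest levels removes). Several members did so where they were not called. With the quality covariate, the line differences of Th and Ddc in cortex turned to 0.93 and -0.14. Under the same setting that of Slc6a3 turned to -0.29 in striatum and -0.13 in cortex, and that of Maoa to -0.06 in striatum. The cause of these changes and of those below was not tested. Numbers of members called: with the array quality covariate, 1 between lines in striatum and 1 in cortex; without the 6 arrays low in Pvalb, 3 between lines in cortex and 1 for the region in PVCre. Leaving out 1 array gave 1 to 2 in the PVCre region comparison. With the replicate number as a block, 2 members were called for the region over both lines (Ddc joined, limma adjusted p = 0.017). Between lines in cortex 3 were called (Slc18a2 and Maob no longer passed, limma adjusted p = 0.083 and 0.059). For the difference between region effects 1 was called (Ddc, limma adjusted p = 0.031). Striatal line calls of Ddc and Pcbd1 no longer passed (limma adjusted p = 0.054 and 0.12). The block changed no call of a member for the region within PV-tdTomato. Only there did all 4 same-numbered pairs deviate together, and the labels state no pairing. Between lines the block matched pools of different mice by number alone (correlations -0.39 to -0.07 in striatum and -0.61 to 0.47 in cortex). In PVCre it used the numbers of the titles. The sample descriptions number the cortical pools 3, 4, 6 and 7 and the striatal ones 1 to 4. Calls gained or lost with the block thus rest on no stated pairing. Counts of members leave out Th except between lines in cortex. Over all genes the block called 1966 for the region over both lines, against 888, and 1956 in PVCre, against 755. Fits of only the groups compared called 288 for the region in PV-tdTomato, against 490, and the fit without arrays low in Pvalb called 1003. With the quality covariate 6980 and 7014 genes were called between lines in striatum and cortex, against 15188 and 15375. The difference between region effects gave 12 to 63 genes with 1 array left out and up to 167 otherwise, against 29. The settings for pathway genes other than members were added after the data were seen. Striatal line differences of Pcbd1 and Pcbd2 reversed to 0.58 and 0.06 with the quality covariate. The signal over background limits Gch1 in PV-tdTomato and Slc18a2, Slc6a3 and Dbh everywhere.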
